A study of Homo sapiens with 12 samples.

Results

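The cassette exons of 4 genes of the spectrin network were followed in MCF10A cells: ADD3, SPTAN1, SYNE2 and DST. MCF10A cells are breast epithelial cells of human origin that grow without end in culture and do not form tumours. All exon-skipping events of these genes in the deposited tables were taken, by matching the middle exon of each event to GENCODE exons, which gave 12 of the 8712 events listed. SYNE2 had 6 of them, DST had 3, SPTAN1 had 2 and ADD3 had 1. The genes had been selected on the difference in inclusion of their exons between TIP60 siRNA and control siRNA, so that this difference is given as a description. Counts of member exons past a threshold in it describe how they were chosen and support nothing.

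TIP60, the product of KAT5, is an acetyltransferase that acts on lysines of histones and other proteins. The cells stably carried 1 of 3 constructs: wild-type TIP60 that the siRNA does not target (*WT-TIP60, the wild-type line), a resistant TIP60 without catalytic activity (*KD-TIP60, the dead line), or the empty vector (MSCV, the vector line). Every line kept its own KAT5 gene and received TIP60 siRNA or control siRNA for 72 h, with 2 libraries for each of the 6 groups. The labels do not say whether the 2 libraries of a group came from separate cultures or whether a line was 1 clone, so that the spread between them, and each p-value, may reflect technical variation.

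Spectrins are long rods of repeated helical bundles that join short actin filaments into a meshwork under the plasma membrane. Adducins cap the fast-growing ends of those filaments and recruit spectrin to them. The spectrin repeat also builds giant linker proteins: nesprins, which tie the outer nuclear membrane to the cytoskeleton through partners in the nuclear envelope, and plakins such as dystonin, which connect cytoskeletal filaments to each other and to junctions. In breast epithelium these proteins serve cell-cell contacts, hemidesmosomes and the position of the nucleus.

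The exons on which the results turn, and a second SPTAN1 exon for contrast, are shown here as transcript sequence from GENCODE 29 on GRCh38, 5′ to 3′ on the gene's strand, with the cassette exon in capitals and 12 bases of each neighbouring exon in lower case. They show how short these coding segments are and that each can be left out without a shift of frame.
ADD3 96-nt exon: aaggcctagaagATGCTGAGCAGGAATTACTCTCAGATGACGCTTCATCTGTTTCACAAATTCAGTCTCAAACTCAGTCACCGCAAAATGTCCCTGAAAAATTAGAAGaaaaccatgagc
SPTAN1 60-nt exon: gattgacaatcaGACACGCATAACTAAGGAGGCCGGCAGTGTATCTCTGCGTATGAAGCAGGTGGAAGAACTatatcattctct
SPTAN1 15-nt exon: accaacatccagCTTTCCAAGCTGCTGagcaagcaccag
SYNE2 69-nt exon: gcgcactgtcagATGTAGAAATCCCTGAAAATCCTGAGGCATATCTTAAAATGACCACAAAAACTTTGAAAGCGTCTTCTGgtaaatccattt
DST 111-nt exon: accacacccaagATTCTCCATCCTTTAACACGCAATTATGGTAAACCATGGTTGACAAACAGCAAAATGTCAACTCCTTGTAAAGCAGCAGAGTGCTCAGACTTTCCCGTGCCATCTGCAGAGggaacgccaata

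The ADD3 exon lies at chr10:110132305-110132400 on the plus strand and is exon 14 of 15 of transcript ADD3-202, where it touches codons 578 to 610 of 706, in the tail of gamma-adducin. GENCODE has 1 transcript with this exon and 3 that join its neighbours directly. The SPTAN1 60-nt exon, at chr9:128592983-128593042 on the plus strand, is exon 22 of 57 of SPTAN1-223 and touches codons 1052 to 1072 of 2498. This 20-residue insert of alpha-II-spectrin is known to follow its SH3 domain. The 15-nt exon of the same gene, at chr9:128609651-128609665, is exon 36 and holds 5 codons, 1587 to 1591.

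The SYNE2 69-nt exon, at chr14:64215286-64215354 on the plus strand, is exon 107 of 116 of SYNE2-204 and touches codons 6445 to 6468 of 6907, toward the end of nesprin-2 that carries its nuclear membrane anchor. The DST 111-nt exon, at chr6:56463046-56463156 on the minus strand, is exon 93 of 95 of DST-202 and holds codons 5373 to 5409 of 5537. GENCODE has 3 transcripts with the SYNE2 exon and 9 without it, and 6 with the DST exon and 3 without it. All 12 member exons, from 15 to 327 nt, have a length that is a multiple of 3, against 62.4% of the 6705 listed events on coding exons, and none holds a stop codon in its reading frame. All 12 overlap annotated coding sequence.

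The measured quantity is the inclusion level, the share of transcripts of the event with the exon in them, from 0 to 1, as MISO's posterior mean with a 95% interval. It was compared where each of the 12 libraries held at least 10 isoform-specific reads, meaning reads that can come from 1 of the 2 forms alone, with or without the exon. That left 2695 events, among them 6 of the 12 member events: the 5 exons printed above and a 72-nt exon of DST. The libraries held 1277953 to 2280488 event reads, meaning reads that fit at least 1 form of any event. The replicate 2 libraries were shallower (at most 1566296) than those of replicate 1 (at least 1983221), and 64.5% to 65.7% of their reads fitted neither form, against 50.1% to 53.2% in replicate 1. Each pair of a TIP60 siRNA and a control siRNA library with the same number therefore gives a value within 1 set. A KAT5 exon had 0 to 3.95 reads with the exon per 1000000 event reads (RPM) under TIP60 siRNA and 5.31 to 17.2 RPM under control siRNA, in 6 libraries each. Reads without that exon marked the lines with a resistant construct. They stood at 1650 and 76.8 RPM (replicates 1 and 2) in wild-type cells with TIP60 siRNA, against 2290 and 93.0 RPM with control siRNA, and at 885 and 28.2 RPM in dead cells with TIP60 siRNA, against 988 and 35.1 RPM with control siRNA. Vector cells had 2.52 and 0 RPM with TIP60 siRNA, against 8.38 and 0.731 RPM with control siRNA. The resistant lines thus differed between replicate sets and from each other in this signal, whose part in the construct comparisons was not tested. Of 12 epithelial markers 6 had an event, with summed levels of 2989 to 5201 RPM under TIP60 siRNA and 2721 to 4424 RPM under control siRNA. Of 8 mesenchymal markers 3 had one (FN1, ZEB1 and ZEB2), with 35.4 to 2490 RPM under TIP60 siRNA and 21.9 to 826.6 RPM under control siRNA, and none of 5 immune markers did. The part of this mesenchymal signal in the results was not tested.

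Gamma-adducin, which helps fix spectrin to actin, had the widest swing of the 4 genes. The ADD3 exon was included at 0.64 and 0.79 in wild-type cells with TIP60 siRNA, against 0.10 and 0.26 with control siRNA. In the dead line the levels were 0.71 and 0.59 with TIP60 siRNA, against 0.05 and 0.04 with control siRNA. Vector cells had 0.72 and 0.58 with TIP60 siRNA, against 0.22 and 0.16 with control siRNA. The 6 TIP60 siRNA libraries were all above the 6 control libraries. By MISO's mean the form with the exon was the larger under TIP60 siRNA and the smaller under control siRNA. With TIP60 siRNA MISO's interval reached an equal share of both forms in wild-type replicate 1 (0.48 to 0.79) and dead replicate 2 (0.28 to 0.84). It also did in both vector libraries (0.43 to 0.95 and 0.32 to 0.83), so that the larger form is not settled in these libraries. No interval of a control library went above 0.43.

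The difference in ADD3 inclusion, TIP60 siRNA minus control siRNA, was 0.535 in wild-type, 0.605 in dead and 0.46 in vector cells (SE 0.0801 each), and 0.533 averaged over lines (SE 0.0462). Within the 6 same-number pairs it ran from 0.42 to 0.66. Over all 2695 events the average difference had a median of -0.00667, and the ADD3 exon ranked 1 from the highest. The order of the group means was wild-type, dead and vector cells with TIP60 siRNA, at 0.715 ± 0.106, 0.65 ± 0.0849 and 0.65 ± 0.099, then vector, wild-type and dead cells with control siRNA, at 0.19 ± 0.0424, 0.18 ± 0.113 and 0.045 ± 0.00707 (SD, n = 2 each). Neighbours within each siRNA overlapped, apart from the dead line under control siRNA, whose libraries were the lowest.

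**Figure D1:**
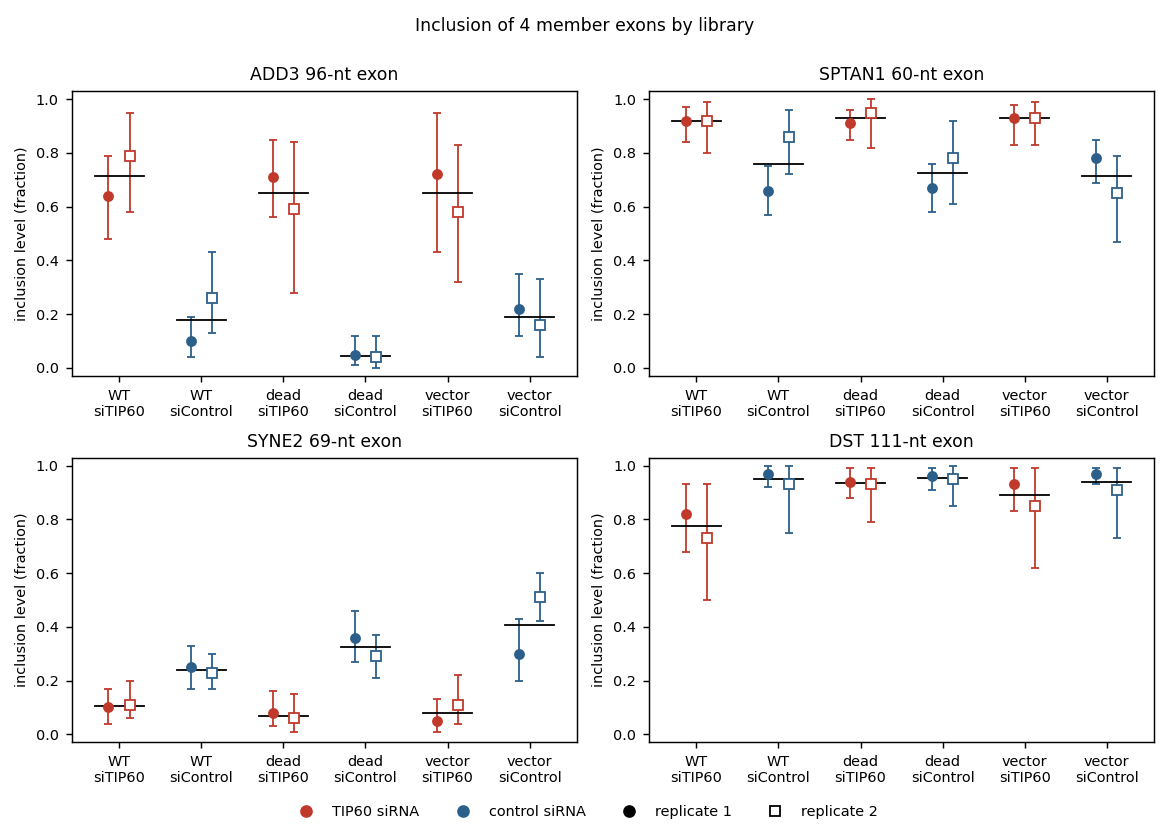
Inclusion level of 4 member exons (y axis, fraction from 0 to 1) in each library, by line and siRNA; points are libraries with MISO's 95% interval, filled for replicate 1 and open for replicate 2, and black lines are group means (n = 2). ADD3 stood at 0.58 to 0.79 with TIP60 siRNA and 0.04 to 0.26 with control siRNA, while the SYNE2 exon stood at 0.05 to 0.11 with TIP60 siRNA and 0.23 to 0.51 with control siRNA.

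Behind the ADD3 levels stood 12 to 44 isoform-specific reads a library, with MISO intervals 0.11 to 0.56 wide. Most reads of this event fell in its flanking exons and fitted both forms, with 172 to 689 event reads a library. Reads of the form with the exon stood at 6.82 to 15.5 RPM under TIP60 siRNA and 0 to 5.12 RPM under control siRNA. Reads of the form without it stood at 0 to 4.57 RPM under TIP60 siRNA and 7.97 to 14.4 RPM under control siRNA. Both forms thus separated the siRNAs, in opposite directions. Pooled over the 6 libraries of each siRNA, the isoform-specific reads were 114 with the exon and 22 without it under TIP60 siRNA, and 28 with and 117 without it under control siRNA. As a plain share of isoform-specific reads, not corrected for the longer form's extra read positions, the average difference was 0.655.

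Alpha-II-spectrin, the rod subunit of the meshwork, kept the 60-nt exon in most transcripts under both siRNAs. Its inclusion was 0.92 and 0.92 in wild-type cells with TIP60 siRNA, against 0.66 and 0.86 with control siRNA. The dead line had 0.91 and 0.95 with TIP60 siRNA, against 0.67 and 0.78 with control siRNA. In vector cells it was 0.93 and 0.93 with TIP60 siRNA, against 0.78 and 0.65 with control siRNA. The TIP60 siRNA libraries lay together at 0.91 to 0.95, and the control libraries were lower and more spread, at 0.65 to 0.86, with no overlap.

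The differences in SPTAN1 60-nt inclusion were 0.16 in wild-type, 0.205 in dead and 0.215 in vector cells (SE 0.0722 each), and 0.193 averaged over lines (SE 0.0417), rank 15 from the highest. The wild-type value rested on 2 unlike control libraries: it was 0.06 without control replicate 1 and 0.26 without control replicate 2. All 6 same-number pairs were higher with TIP60 siRNA, by 0.06 to 0.28. The event had 28 to 180 isoform-specific reads a library. The form without the exon rested on few reads: it had 0 to 3.51 RPM under TIP60 siRNA and 1.33 to 12.5 RPM under control siRNA, or 15 reads in all under TIP60 siRNA and 84 under control siRNA. The form with the exon overlapped between the siRNAs, at 21.9 to 75.4 RPM under TIP60 siRNA and 19.9 to 62.8 RPM under control siRNA.

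The 15-nt exon of SPTAN1, farther along the same transcript, was skipped in most transcripts and its libraries overlapped between the siRNAs. Its inclusion was 0.20 and 0.20 in wild-type cells with TIP60 siRNA, against 0.21 and 0.25 with control siRNA. Dead cells had 0.18 and 0.23 with TIP60 siRNA, against 0.15 and 0.17 with control siRNA, and vector cells had 0.08 and 0.13 with TIP60 siRNA, against 0.07 and 0.22 with control siRNA. The average difference was -0.00833 (SE 0.0277), with 3 of 6 pairs higher and 3 lower. The 2 exons of 1 gene therefore had differences of unlike size, 0.193 and -0.00833.

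**Figure D2:**
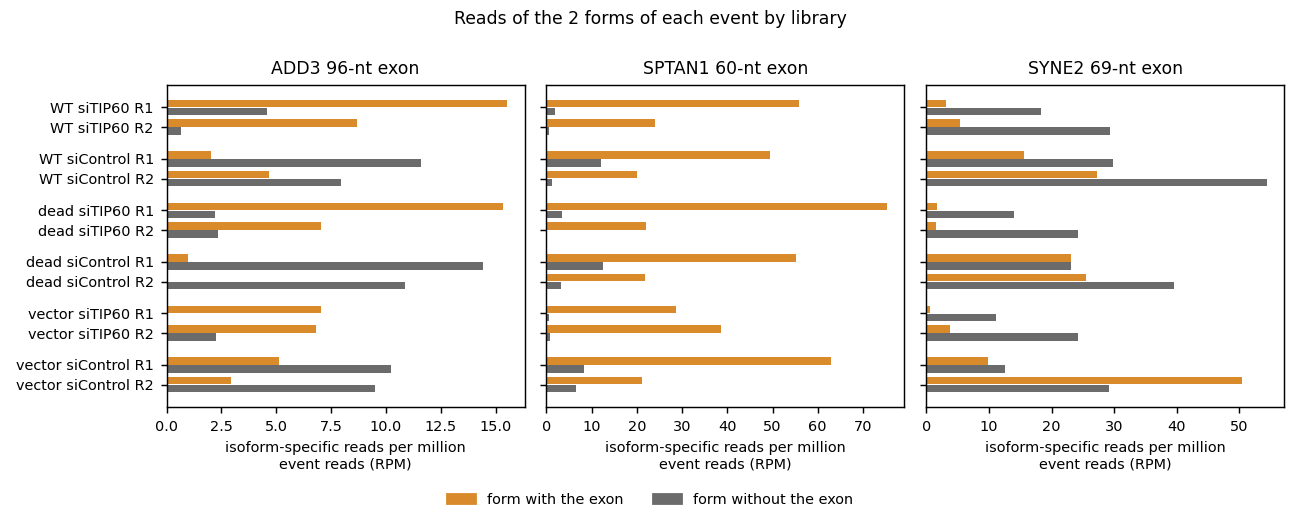
Reads specific to the form with the exon (orange) and to the form without it (grey), per 1000000 event reads of the library (x axis, RPM), for 3 exons in each of the 12 libraries; bars start at 0 and R1 and R2 are replicates. In ADD3 the longer bar was that of the form with the exon in all 6 TIP60 siRNA libraries and that of the form without it in all 6 control libraries, while in SYNE2 the form with the exon had at most 5.34 RPM under TIP60 siRNA and at least 9.78 RPM under control siRNA.

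In nesprin-2 the 69-nt exon was less included with TIP60 siRNA. Its level was 0.10 and 0.11 in wild-type cells with TIP60 siRNA, against 0.25 and 0.23 with control siRNA. Dead cells had 0.08 and 0.06 with TIP60 siRNA, against 0.36 and 0.29 with control siRNA. The vector line had 0.05 and 0.11 with TIP60 siRNA, against 0.30 and 0.51 with control siRNA. All TIP60 siRNA libraries lay at or below 0.11 and all control libraries at or above 0.23, and replicate 2 of the vector control stood highest.

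The SYNE2 differences were -0.135 in wild-type, -0.255 in dead and -0.325 in vector cells (SE 0.0633 each), and -0.238 averaged over lines (SE 0.0366), rank 27 from the lowest. The 6 same-number pairs ran from -0.40 to -0.12. Under TIP60 siRNA the order of the means was wild-type, vector and dead cells, at 0.105 ± 0.00707, 0.08 ± 0.0424 and 0.07 ± 0.0141 (SD, n = 2 each), each overlapping the next. Under control siRNA it was vector, dead and wild-type cells, at 0.405 ± 0.148, 0.325 ± 0.0495 and 0.24 ± 0.0141 (SD, n = 2 each), where vector and dead libraries overlapped. There were 23 to 123 isoform-specific reads a library. Reads of the form with the exon stood at 0.503 to 5.34 RPM under TIP60 siRNA and 9.78 to 50.4 RPM under control siRNA, with no overlap. Those of the form without it overlapped, at 11.1 to 29.4 RPM under TIP60 siRNA and 12.6 to 54.5 RPM under control siRNA.

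The remaining 5 SYNE2 events did not reach the read minimum in every library. The 102-nt, 126-nt and 156-nt exons were nearly constitutive, with 3, 0 and 1 skipping reads against 350, 526 and 875 reads with the exon over all libraries that listed them. The 150-nt exon was the reverse, with 0 reads including it and 366 skipping it. The 99-nt exon was listed in 1 library on 6 skipping reads. The extreme levels of 2 of these exons, 0.68 for the 156-nt and 0.24 for the 150-nt exon, came from 1 library, replicate 2 of dead cells with TIP60 siRNA, on 6 and 2 isoform-specific reads, where MISO's mean lies toward the middle of its range.

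The DST 111-nt exon was included in most dystonin transcripts in all 12 libraries. Its level was 0.82 and 0.73 in wild-type cells with TIP60 siRNA, against 0.97 and 0.93 with control siRNA. In dead cells it was 0.94 and 0.93 with TIP60 siRNA, against 0.96 and 0.95 with control siRNA, and in vector cells 0.93 and 0.85 with TIP60 siRNA, against 0.97 and 0.91 with control siRNA. The wild-type libraries with TIP60 siRNA were the 2 lowest of the 12. The difference was -0.175 in wild-type, -0.02 in dead and -0.05 in vector cells (SE 0.04 each), and -0.0817 averaged over lines (SE 0.0231), with all 6 pairs lower, at -0.20 to -0.02. With replicate number as a block the SE was 0.0241 in each line and 0.0139 averaged over lines. These levels rest on few reads of the skipping form: 10 against 384 with the exon under TIP60 siRNA, and 2 against 681 under control siRNA. As a plain share of isoform-specific reads the wild-type difference was -0.0691 and the average -0.0305.

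Dystonin's 72-nt exon, at chr6:56464685-56464756 in DST-204, was skipped throughout, at 0.01 to 0.03 in every library, on 1 read with the exon and 489 without it. The 327-nt exon, listed in 11 libraries, had 821 reads with the exon and 1 without it. At the 72-nt exon, with 18 to 87 isoform-specific reads a library, the average difference was 0.00833 (95% interval -0.0165 to 0.0332). With levels this near 0, a difference within that interval is not settled.

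**Figure D3:**
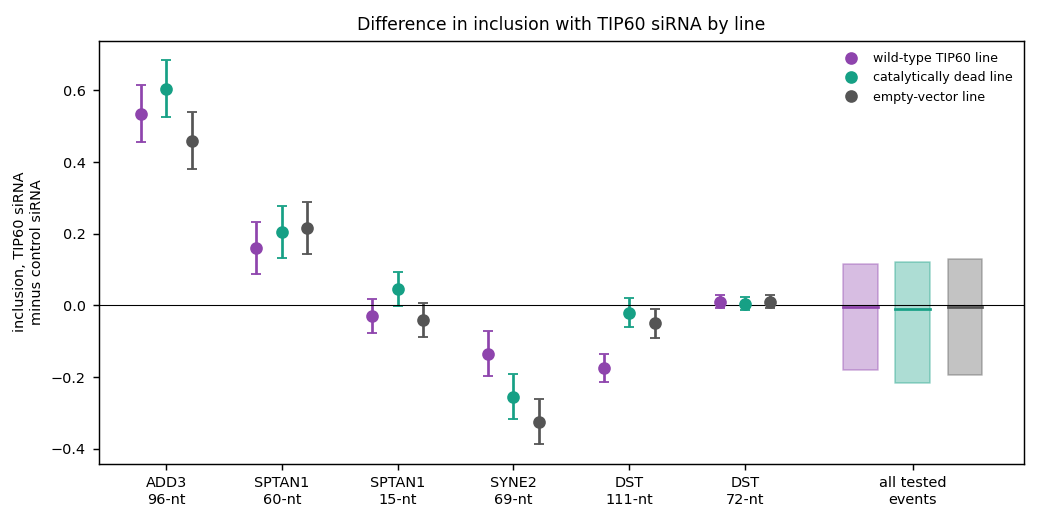
Difference in inclusion, TIP60 siRNA minus control siRNA (y axis, fraction), for the 6 tested member exons in each line, with the SE of the limma fit, beside the middle 95% and the median of all 2695 tested events in each line (shaded bars). ADD3, at 0.46 to 0.605, lay farthest above those bars and the SYNE2 exon, at -0.325 in vector and -0.255 in dead cells, below them.

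Of the 6 tested exons, 2 passed an adjusted p of 0.05 in the average over lines, the ADD3 exon higher and the SYNE2 69-nt exon lower, beside 2.19% of all tested events. The fit was limma with Benjamini-Hochberg adjustment over the 2695 events. Nothing is read from these calls, or from those of the fits that follow, because the contrast chose the genes. With replicate number as a block, 3 of 6 passed, the DST 111-nt exon being added on the lower side, beside 4.27% of all events. The ADD3 call held in 12 of 12 fits that each left out 1 library, and the SYNE2 call in 2 of 12, the 2 that left out a vector control library. Within a single line none of the 6 passed, beside 0% of all events in wild-type, 0.0371% in dead and 0.0371% in vector cells.

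Whether a resistant TIP60 changed these exons was tested next, since the construct comparisons had not chosen the genes. The comparisons themselves were still picked with earlier results of these data known. No member exon passed the test between constructs when averaged over the siRNAs: 0 of 6 were called for wild-type against vector, for dead against vector and for dead against wild-type, and 0% of all events did in each. The ADD3 differences were 0.0275 (95% interval -0.106 to 0.161) for wild-type minus vector, -0.0725 (-0.206 to 0.0613) for dead minus vector and -0.1 (-0.234 to 0.0338) for dead minus wild-type. For the SYNE2 69-nt exon they were -0.07 (-0.176 to 0.0358), -0.045 (-0.151 to 0.0608) and 0.025 (-0.0808 to 0.131) in the same order. The SPTAN1 60-nt exon had 0.0175 (-0.103 to 0.138), 0.005 (-0.116 to 0.126) and -0.0125 (-0.133 to 0.108). These intervals still allow differences of 0.1 and more.

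The size of the siRNA response did not pass the test for a difference between lines in any member exon either, with 0 of 6 called in each of the 3 comparisons and 0% of all events. Unlike the construct comparisons, these are formed from the siRNA differences on which the genes were selected, so that they are not free of that choice. ADD3's response in dead cells minus that in vector cells was 0.145 (-0.123 to 0.413), and wild-type minus vector was 0.075 (-0.193 to 0.343). For the SYNE2 69-nt exon wild-type minus vector was 0.19 (-0.0217 to 0.402), the widest difference of the 36 member tests, so that a smaller drop in wild-type cells was not detectable as different at this depth. Over all tested events 1.19% to 2.19% had an unadjusted limma p under 0.05, depending on the comparison. Of the 36 member tests 3 had one, and each had an adjusted p of 1.00. One was the SPTAN1 15-nt exon in wild-type minus vector cells, 0.09 (0.00997 to 0.17), and the other two were the DST 111-nt exon in dead minus wild-type cells, at 0.0825 (0.0157 to 0.149) for the level and 0.155 (0.0214 to 0.289) for the siRNA response. A quasi-binomial model of the reads also called 0 of 6 in each of the 6 comparisons. Among the 36 it gave 1 unadjusted p under 0.05, beside 1% to 2.08% of all tested events by comparison. In limma with replicate number as a block 0 were called and 5 of the 36 had one, 4 of them of the DST 111-nt exon and 1 of the SPTAN1 15-nt exon. With the block the DST 111-nt intervals, dead minus wild-type, were 0.041 to 0.124 for the level and 0.072 to 0.238 for the siRNA response. The share over all events is not given for that fit, so that nothing is read from these 5.

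**Figure D4:**
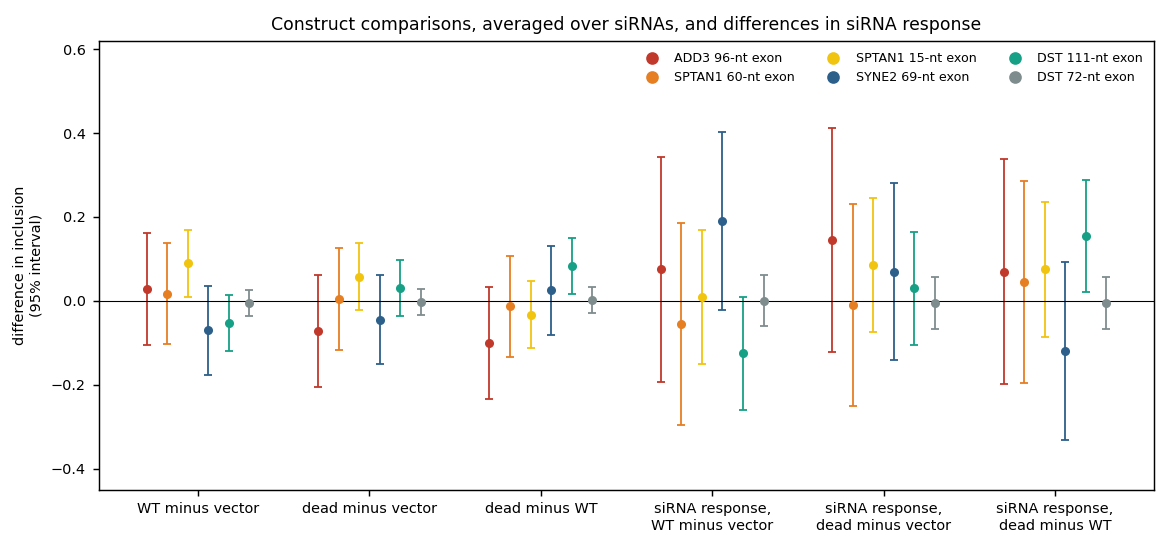
Differences in inclusion (y axis, fraction, with 95% intervals of the limma fit) between constructs averaged over siRNAs, and between lines in the siRNA response, for the 6 tested member exons. The differences ran from -0.125 to 0.19, and 3 of the 36 intervals did not cross 0.

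Event reads are the only measure of the amount of transcript in these tables. They were lower on average with TIP60 siRNA at each member event listed in all 12 libraries, most for nesprin-2 and dystonin. They are given as RPM of each event, which is not scaled for length and is not compared between genes. They sum the reads of both forms, and the form with the exon is longer, so that they also move with inclusion. At the SYNE2 69-nt event the form with the exon had a median of 2.48 RPM under TIP60 siRNA and 24.3 RPM under control siRNA. The form without it had medians of 21.3 and 29.5 RPM. How much of the drop in event reads came from the lower inclusion was not tested. The SYNE2 69-nt event had 36.6 and 38.1 RPM in wild-type cells with TIP60 siRNA, against 61.5 and 89.7 RPM with control siRNA. Dead cells had 27.2 and 27.4 RPM with TIP60 siRNA, against 69.3 and 71.5 RPM with control siRNA, and vector cells had 21.6 and 28.1 RPM with TIP60 siRNA, against 37.2 and 85.5 RPM with control siRNA. One control library of vector cells, at 37.2 RPM, fell below 1 TIP60 siRNA library of wild-type cells, and within each line the siRNAs did not overlap.

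On the log2(RPM + 0.5) scale the average difference was -1.17 for the SYNE2 69-nt event (SE 0.286), -1.34 for the 156-nt event (SE 0.747) and -1.44 for the 150-nt event (SE 0.637). For DST it was -0.70 at the 111-nt event (SE 0.508) and -0.80 at the 72-nt event (SE 0.384). ADD3 had -0.42 (SE 0.24), SPTAN1 -0.15 at the 60-nt event (SE 0.583) and -0.35 at the 15-nt event (SE 0.478). With replicate number as a block these SEs were smaller. They were 0.199, 0.387 and 0.53 for the SYNE2 events in the order given, and 0.173 and 0.193 for those of DST. For ADD3 the SE was then 0.106, and for SPTAN1 0.272 and 0.179. The 8 member events listed in all 12 libraries were thus all lower on average, with a median of -0.75, and the 4992 events listed in all 12 had a median of -0.0997, with 57.5% of them lower. Events of 1 gene share its transcripts and are not independent.

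In ADD3 the event reads were lower in 6 of 6 same-number pairs, with log2 differences of -0.58 to -0.29, while the inclusion level was higher in all 6. In SPTAN1 the 60-nt event was higher in 3 pairs and lower in 3. In these bulk libraries fewer cells with a transcript and less transcript per cell cannot be told apart. None of the 8 member events passed an adjusted p of 0.05 for event reads with TIP60 siRNA, beside 0.741% of all 4992 events in limma. At an unadjusted limma p under 0.05 there was 1 of 8, beside 11% of all events, and limma-voom called 0 with 2 at that level. With replicate number as a block 5 of 8 passed on the lower side (ADD3, both of these DST events and the 156-nt and 69-nt SYNE2 events), beside 16.8% of all events, and again nothing is read from a contrast that chose the genes.

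**Figure D5:**
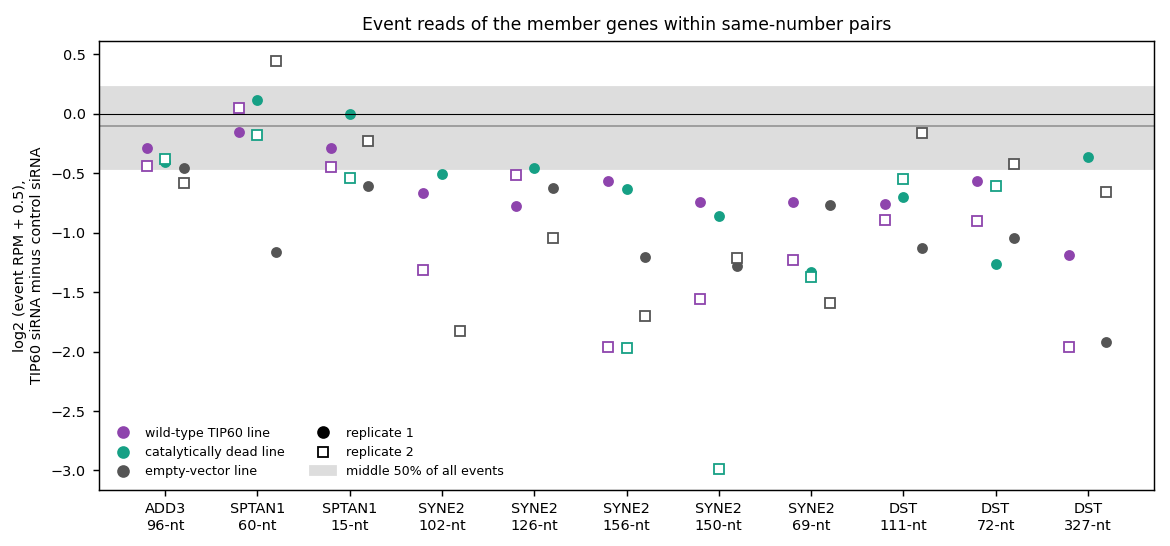
Difference in event reads, TIP60 siRNA minus control siRNA, within each pair of libraries with the same replicate number (y axis, log2 of RPM + 0.5), for the 11 member events with a pair; the grey band is the middle 50% of the average differences of all 4992 events and the grey line their median of -0.0997. The points of ADD3, SYNE2 and DST were all under 0, and those of the SPTAN1 60-nt event lay on both sides.

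Between constructs, averaged over siRNAs, 0 of 8 member events passed the test of event reads in each of the 3 comparisons, beside 0% of all events. None of the 24 tests had an unadjusted limma p under 0.05, beside 0.361% to 1.18% of all events by comparison. With replicate number as a block 0 of 8 were again called, and 3 of the 24 had one: ADD3 in dead minus vector cells (0.32, interval 0.0342 to 0.612 on the log2 scale), and the DST 111-nt event in dead minus vector (0.60, 0.124 to 1.07) and dead minus wild-type cells (0.52, 0.0434 to 0.991). For the fit with the block the share over all events is not given, so that nothing is read from these 3. For the SYNE2 69-nt event wild-type minus vector was 0.49 (-0.306 to 1.29 on the log2 scale), and for ADD3 dead minus vector was 0.32 (-0.344 to 0.99), both without the block. Without the block the intervals of the member events ran from -2.59 to 2.61 in all, so that a change of several fold in the thinly covered events could not be seen.

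No event of another gene passed the test in the lists of related genes. Among 27 genes of the spectrin and membrane skeleton 6 had tested events, 10 in all, and in the average over lines 1 event was called higher, the ADD3 exon, and 0 lower, beside 2.19% of all tested events called in either direction. The ADD3 call here and the SYNE2 call in the next list are of the genes chosen on this contrast, so that neither is evidence about its list. The median of the 10 events was -0.00417, against -0.00667 over all tested events. EPB41L2, a protein 4.1 family member that joins spectrin and actin to membrane proteins, had -0.0417 (SE 0.0331, adjusted p = 0.802 in limma) at its 315-nt exon at chr6:130869812-130870126. Of 13 genes of the nesprin and LINC complex, the bridge across the nuclear envelope, 4 had 1 tested event each: 0 were called higher and 1 lower, the SYNE2 exon, with a median of -0.0325. SUN1, which binds nesprins from the inner nuclear membrane, had -0.0633 (SE 0.0465, adjusted p = 0.772 in limma) at its 97-nt exon at chr7:832505-832601.

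Among 6 plakins, DST and MACF1 had 4 tested events, 0 of them called in either direction, with a median of -0.0192. MACF1, a cytoskeletal cross-linker related to dystonin, has a 111-nt cassette exon too, at chr1:39480920-39481030. It was included at group means of 0.075 to 0.2, where the DST 111-nt exon stood at 0.775 to 0.955, and its difference was -0.0367 (SE 0.0297, adjusted p = 0.81 in limma). Of 12 actinins, dystrophins and other spectrin-repeat genes, ACTN1 alone had tested events, 2 in all and neither called, with a median of -0.00917. No event of these 4 lists was called in a construct comparison.

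Across the 12 libraries, after each replicate set was centred on its own mean, the ADD3 level moved with that of the SPTAN1 60-nt exon (Pearson's r = 0.891) and against that of the SYNE2 69-nt exon (r = -0.85). These 12 points are 6 groups of 2 and share their libraries and siRNAs, so that exons with a siRNA difference can have high values. The exons most like ADD3 by this measure were those of MYL6 (r = -0.957), CD46 (r = -0.95) and ARHGAP17 (r = -0.949), all in the opposite direction. For the SYNE2 69-nt exon they were PUF60 (r = 0.958), TPD52L1 (r = 0.945) and the SPTAN1 60-nt exon (r = -0.937). PLEKHA1 (r = -0.942) led for the SPTAN1 60-nt exon, and NDUFA12 (r = 0.872) for the DST 111-nt exon, whose best match was lower than those of the other 3.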

How the data were processed

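RNA of 12 MCF10A libraries was measured by stranded mRNA sequencing. STAR and hg38 are named in the submitters' processing notes, without versions. Per the file headers, the deposited inclusion level is a fraction, MISO's posterior mean inclusion level with its interval, rounded to 2 decimals and not scaled to library size. The deposited tables also give, as text, the reads of each class; isoform-specific reads and event reads were summed from them.

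Inclusion was fitted with limma 3.58.1 in R 4.3.3: 1 factor of 6 groups, robust empirical Bayes with a variance trend on log2 isoform-specific reads, two-sided, Benjamini-Hochberg over all 2695 events with at least 10 isoform-specific reads in every library. Event reads were fitted by limma as log2(RPM + 0.5) over 4992 events. The scripts were tested on simulated data. Same-number libraries deviated together (correlations of 0.706 to 0.779 for inclusion and 0.583 to 0.896 for event reads over 15 pairs of groups), so that the numbers pair the samples, and the fit with replicate number as a block is given where it changes a call. Intervals of the construct comparisons and response differences come from the fit without the block, which leaves this pairing out, unless the block is named. The members, the gene lists and the comparisons were chosen with earlier results of these data known. Values by library are given for member events past the read minimum, others by range. The events of other genes named from the lists were picked by the smallest unadjusted limma p. Exons and sequences come from GENCODE 29. MISO's intervals cover counting error only.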

Additional observations from a re-analysis of the deposited data

Results flagged for a closer look

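The SPTAN1 15-nt exon was singled out because its siRNA response had opposite signs in the resistant lines. Both same-number pairs of dead cells were higher with TIP60 siRNA, by 0.03 and 0.06, and both pairs of wild-type cells were lower, at -0.01 and -0.05. The difference of the responses, dead minus wild-type, was 0.075 (95% interval -0.0851 to 0.235), and its limma test gave an adjusted p of 1.00.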

How the results depend on the processing

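The counts of member exons called in the 3 construct comparisons and the 3 differences in siRNA response stayed at 0 under each of the 20 alternatives (replicate block, other read minimums, log odds, read share, quasi-binomial models with and without the block, primary chromosomes only, each library left out). The event-read counts for the constructs also stayed at 0, with the block, a pseudocount of 2 RPM, at least 10 event reads, each library left out, and limma-voom, which was added after the data were seen. The planned count models of 2 other packages were not run, because the read numbers are held inside text cells.

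For TIP60 siRNA averaged over lines, 2 member exons were called for inclusion, beside 2.19% of all tested events. With the replicate block 3 were called (the DST 111-nt exon added), beside 4.27%. On log odds there were 3 (the SPTAN1 60-nt exon added), beside 1.52%. With at least 20 reads there was 1 (SYNE2, since ADD3 was then not tested), beside 3.0%. The read share, no read minimum and primary chromosomes gave 2 each, beside 1.48%, 0.601% and 2.3%. Log odds, the other read minimums and primary chromosomes were added for this contrast after the data were seen. Nothing is read from these counts, because the contrast chose the genes. For event reads the replicate block, added after the data were seen, raised the member calls to 5, against 0 without it, and the calls over all events to 837, against 37. The replicate block changed no other call of a member. Of 396 values of single exons under alternatives 391 were counted as moving by less than the spread between replicates. These include values on the log2 odds scale, which cannot be set beside inclusion: 1.08 for the SPTAN1 15-nt exon in wild-type minus vector cells (0.09 as inclusion). For the DST 111-nt exon, dead minus wild-type, they were 1.04 for the level and 2.0 for the siRNA response (0.0825 and 0.155 as inclusion). For the small within-line differences such a move can be over 1.5 times (the SPTAN1 60-nt difference in wild-type cells ran from 0.06 to 0.26 without a control library). The other 5 moved further, all on the read share: the ADD3 difference (0.781 in dead cells, 0.591 in vector cells, 0.655 on average), the DST 111-nt difference in wild-type cells (-0.0691) and the DST 72-nt difference in vector cells (-0.00704). None that was called changed sign. The cause was not tested. Depth limits each ADD3 level, with 12 to 44 isoform-specific reads behind it, and the DST 111-nt levels, with 12 skipping reads over all libraries.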
